A study of Drosophila yakuba and Drosophila melanogaster with 20 samples.

Results

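Transversions that recurred in all 4 tables of base differences from Drosophila melanogaster head RNA are described here. A transversion exchanges a purine (A or G) for a pyrimidine (C or T), or the reverse. Members were differences of the 8 transversion kinds, on chromosomes other than the mitochondrial one, with the same reference and differing base in every table. There were 2079 of them, out of 1485034 distinct nuclear transversions (0.140%) and 1721894 distinct nuclear differences of any kind. They were chosen by presence in all 4 tables, a measured value of these libraries, so their number and their presence are descriptions and carry no test.

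The 4 libraries came from adult heads of the y; cn, bw, sp strain, about 50 heads and 5 µg of total RNA each, and all were mock-treated, without acrylonitrile. HiSeq replicates 1 and 2 were read as 50-nt reads and NextSeq replicates 1 and 2 as 86-nt reads. The tables name a position, the reference base and the differing base, with no read counts, so depth, the share of reads that differ, and expression of head genes are unknown, and fewer cells of a type cannot be told apart from less RNA per cell. The labels do not say that replicates came from separate flies. HiSeq 1 and 2 listed 67984 and 110267 nuclear transversions, and NextSeq 1 and 2 listed 378663 and 997185. Shares between libraries depend on these sizes. Each HiSeq library shared most with the NextSeq library of its number. HiSeq 1 shared 14.5% of its transversions with NextSeq 1, 10.1% with NextSeq 2 and 8.11% with HiSeq 2. HiSeq 2 shared 14.2% with NextSeq 2, 5.13% with NextSeq 1 and 5.00% with HiSeq 1. The NextSeq libraries shared more with each other, 9.32% of NextSeq 1 and 3.54% of NextSeq 2, than with the HiSeq library of their number, 2.60% and 1.57%. The smaller size of the HiSeq libraries limits how large the last 2 shares could be. Whether the 4 tables come from fewer than 4 RNA preparations was not tested.

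The editing enzymes studied in the series, adenosine deaminases acting on RNA, turn A into inosine, which is read as G. That change is a transition, so none of the kinds described here is a direct product of those enzymes. The y; cn, bw, sp line is the strain from which the reference genome of the species was sequenced. Inherited single-base variants of animals usually hold more transitions than transversions relative to the number of possible changes.

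Stretches of dm3 show what surrounded the members (forward strand, 5′ to 3′; capitals mark the recurrent transversions). The reference bases were read from the tables, which give a base only where some table lists a difference. Runs of 8 or more known bases existed at 28 places, of which 24 were considered for printing. The first 8 stretches are all of these with 9 or more bases and 1 member that changed to A or T, a rule set after the letters were seen.
chr3R:22087080-22087104: atgtggTgattagctgctggctact
chr2L:21794100-21794119: taaCacataatgaaaatgag
chr2L:14615595-14615612: gacggGctaacgagtact
chrX:19015-19029: tgattgattatAttg
chr3R:5258196-5258208: gttgtcgtttaaC
chr3R:18182430-18182440: tatgatTaaaa
chr3RHet:304126-304135: Acgacccgat
chr2L:9723956-9723964: Gtttttttt
In order, the changes are T-to-A, C-to-A, G-to-T, A-to-T, C-to-A, T-to-A, A-to-T and G-to-T. The differing base stood next to the member in 5 of the 8 and not in the other 3, and the shares over all members are given with the surrounding bases below. A further 3 stretches, picked for their members, show the rarer dense groups, in which several neighbouring bases differed in every table.
chr2L:9967323-9967333: gcgatTTcCTt
chr3R:14074019-14074028: aacCccCGcc
chr3R:7222147-7222155: ttgTacATa
In the 2L stretch the changes are T-to-G, T-to-G, C-to-G and T-to-G. They are C-to-A, C-to-A and G-to-C in the second, and T-to-G, A-to-C and T-to-A in the third.

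Changes to A or T dominated the recurrent transversions, and C-to-A with its complement G-to-T was the main kind. C-to-A numbered 657 and G-to-T 580, together 59.5% of the members (exact 95% binomial interval 57.4 to 61.6). A-to-T numbered 364 and T-to-A 331, together 33.4% (31.4 to 35.5). The changes to C or G were few: 46 A-to-C, 43 T-to-G, 32 C-to-G and 26 G-to-C, together 7.07% (6.01 to 8.26). The complementary kinds of each pair were close in number. Intervals here and below cover counting error only, and neighbouring positions of a transcript are not independent.

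The share of C-to-A and G-to-T was higher at each step of recurrence. It was 27.1% of transversions in 1 table, 28.5% in 2, 44.5% in 3 and 59.5% in 4. For A-to-T with T-to-A the share was 53.2% in 1 table and 33.4% in 4. Whole libraries gave 30.5% and 31.2% for this kind in HiSeq 1 and 2, against 58.7% and 54.2% in NextSeq 1 and 2. The members thus lay below both NextSeq libraries and slightly above both HiSeq libraries. NextSeq 1 and 2 supplied 334718 and 946389 of the 1423611 transversions in 1 table. The part of this mix in the lower A-to-T and T-to-A share was not tested. Taking all transversions of a library, C-to-A and G-to-T made up 31.0% and 31.3% in HiSeq 1 and 2, and 25.2% and 27.8% in NextSeq 1 and 2, each below the share among members. The instruments differ here: C-to-A and G-to-T made up 48.3% of transversions in both HiSeq tables and 26.6% of those in both NextSeq tables, whatever the other instrument listed. The NextSeq value lay between the shares of the 2 whole NextSeq libraries, so the higher share was not seen with recurrence on NextSeq alone.

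**Figure D1:**
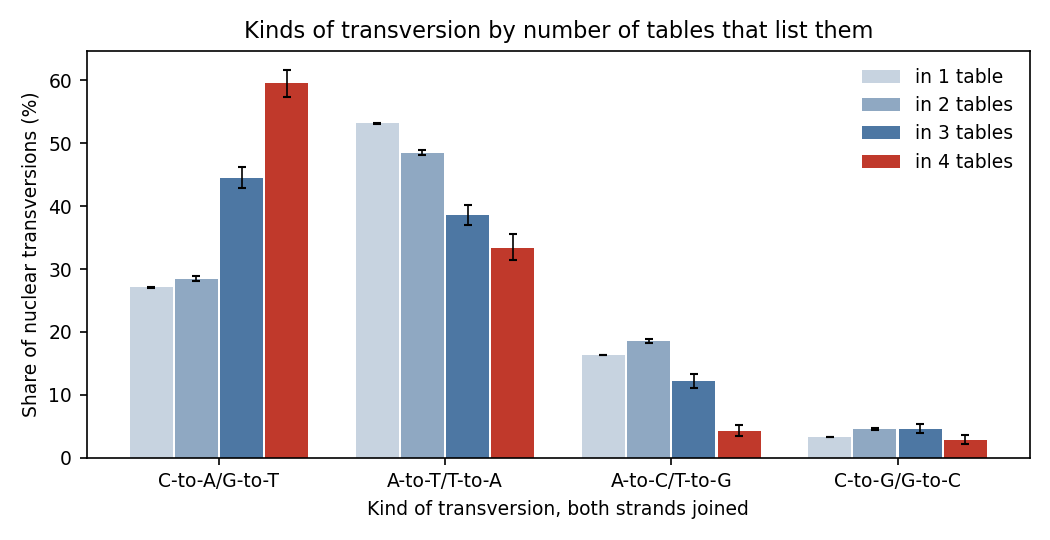
Share of nuclear transversions (%, vertical axis) of each strand-joined kind among those listed in 1, 2, 3 or 4 tables; bars are shares and whiskers exact 95% binomial intervals. C-to-A/G-to-T goes from 27.1% in 1 table to 59.5% in 4, and A-to-C/T-to-G from 16.3% to 4.28%.

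By number, most recurrent differences were transversions, as were most listed differences. All 4 tables listed 1269 nuclear transitions, of which 603 were C-to-T or G-to-A and 666 were T-to-C or A-to-G, beside the 2079 transversions. Of all distinct nuclear C-to-T and G-to-A differences, 0.571% were in every table, a higher share than the 0.140% of transversions. Just outside the rule lay 3484 transversions in exactly 3 tables, of which HiSeq 1 lacked 1018, HiSeq 2 lacked 990, NextSeq 1 lacked 820 and NextSeq 2 lacked 656. No single table accounted for most of these. The members made up 3.06% and 1.89% of the nuclear transversions of HiSeq 1 and 2, and 0.549% and 0.208% of those of NextSeq 1 and 2.

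The reference around the members was rich in the very base that replaced the reference base. Within 10 bases on either side, 47.5% of 8596 known reference bases equalled the differing base (46.5 to 48.6), and 20.7% equalled its complement. Around transversions found in 1 table the shares were 29.4% and 32.2%. The share equal to the differing base was 31.0% around those in 2 tables and 37.0% around those in 3. In single libraries, transversions of 1 table gave 26.8% and 27.2% for HiSeq 1 and 2, and 30.6% and 29.4% for NextSeq 1 and 2, all below the members.

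The share differed by kind. The share was 52.2% for C-to-A or G-to-T members, 47.1% for A-to-T or T-to-A, 27.4% for A-to-C or T-to-G and 18.1% for C-to-G or G-to-C. In the same order, 1-table transversions gave 33.6%, 30.5%, 22.1% and 18.8%. C-to-T and G-to-A differences in all 4 tables resembled the main kinds, at 50.1% against 30.5% for those in 1 table. By arm, the share was 50.3% on X and 45.7% to 48.0% on 2L, 2R, 3L, 3R and 4.

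For C-to-A and G-to-T members the excess was highest at the base just before the change. C-to-A and G-to-T members were read together on the strand where the differing base is A. The base just before the change was then A in 68.4% of 386 known cases and the base just after in 56.5% of 292, against 29.2% and 35.1% for those in 1 table. After the change the share was not graded over the first 10 bases. It lay between 47.3% at 4 bases and 56.6% at 3. For those in 1 table it lay between 31.2% at 6 bases and 35.4% at 2. At 10 bases before and after, A still made up 46.1% and 51.8%. At 20 bases before and after it was 36.5% and 41.9%, nearer to the 33.0% and 34.6% around 1-table differences. Where both adjacent bases were known, at least 1 equalled the differing base in 135 of 150 members that changed to A or T (90.0%, 84.0 to 94.3), and both did in 61 (40.7%, 32.7 to 49.0). For 1-table transversions to A or T these shares were 46.9% and 8.30%. Known bases are a biased sample, since a base is known only where a difference was listed. Members lay among more listed positions, with a median of 19 others within 50 bp against 9 for transversions in 1 table, and the part of this in the shares was not tested.

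**Figure D2:**
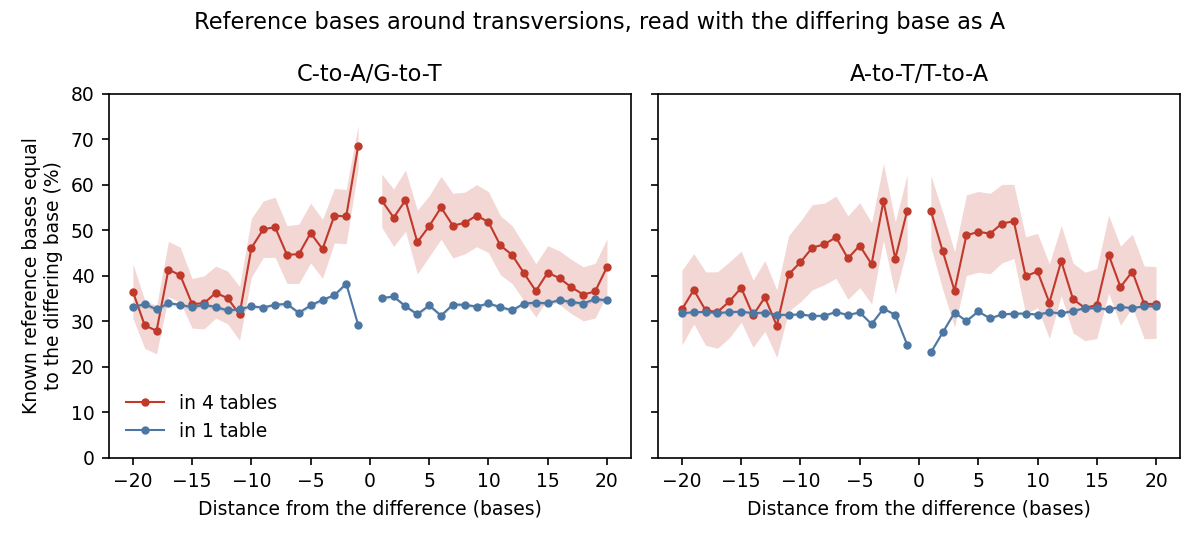
Share of known reference bases equal to the differing base (%, vertical axis) by distance in bases, for C-to-A/G-to-T (left) and A-to-T/T-to-A (right), complemented where the differing base is T; red is in 4 tables, blue in 1 table, bands exact 95% binomial intervals. For C-to-A/G-to-T in 4 tables the curve reaches 68.4% at the base before the change and 36.5% at 20 bases before it.

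The differing base was one-sided with respect to the direction of nearby transcripts. Listed editing sites give this direction where a table shows the edited base, A for forward and T for reverse transcripts, and it was known at 1084 of the 1238 sites of the authors' D. melanogaster list. Within 10000 bp of such a site lay 514 members that changed to A or T, and 400 of them (77.8%, 74.0 to 81.3) were changes to A in the sense of the transcript. Of 553 members of all kinds in that range, 270 were C-to-A in transcript sense and 130 T-to-A, against 58 G-to-T and 56 A-to-T. Transcript-sense C-to-A alone thus made up 48.8% of them. The assignment assumes that a member belongs to the transcript of the nearest listed site, which no gene annotation checked here.

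Within 10000 bp of a listed site, this direction was again graded with recurrence. Changes to A in transcript sense were 50.6% of those to A or T in 1 table, 55.2% in 2 and 64.9% in 3. In 1-table transversions of single libraries the share lay between 48.7% and 52.6%. It was 78.8% for members on X and 77.2% off X, and 82.3% for C-to-A and G-to-T members against 69.9% for A-to-T and T-to-A. C-to-T and G-to-A differences in all 4 tables gave 54.2% (45.7 to 62.5). Within instruments the share was 68.1% in both HiSeq tables and 58.5% in both NextSeq tables. At 1000 bp from a site, transversions in 3 tables gave 67.5% and those in 4 gave 78.5%. At 100 bp counts were small and the order was the reverse, with 83.9% (26 of 31) in 3 tables and 72.0% (18 of 25) in 4.

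Neighbouring members often had the same differing base. Of 427 neighbouring pairs up to 1000 bp apart that both changed to A or T, 299 (70.0%, 65.4 to 74.3) had the same differing base. The share was 64.8% between 1000 and 10000 bp and 52.6% (49.4 to 55.8) beyond. Pairs up to 1000 bp apart had the same base in 59.2% of cases (55.1 to 63.1) for transversions in 3 tables and in 63.8% (44 of 69 pairs) for recurrent C-to-T and G-to-A, where the exact interval starts at 51.3% and overlaps that of the members. Pairs within 1000 bp had the same base in 63.9% of cases on X and in 177 of 236 cases off X.

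**Figure D3:**
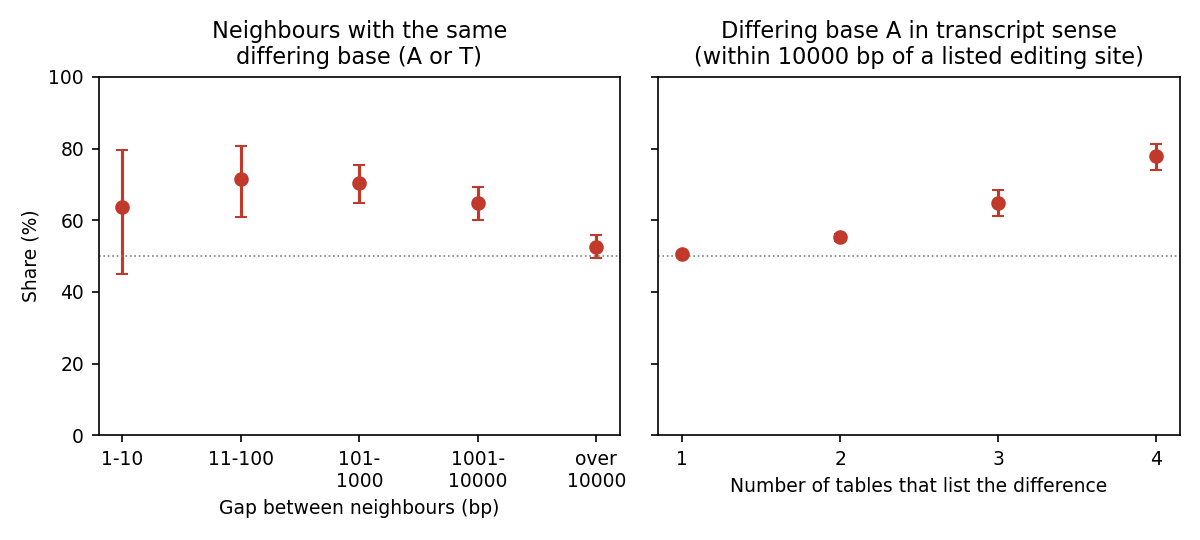
Left, share of neighbouring recurrent transversions to A or T with the same differing base (%) by their gap in bp; right, share of transversions to A or T that are to A in transcript sense (%), by number of tables. Points are shares, whiskers exact 95% binomial intervals, and the dotted line marks equal numbers; the left falls to 52.6% beyond 10000 bp and the right reaches 77.8% in 4 tables.

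The X chromosome held more than its share. It carried 740 members (35.6%, 33.5 to 37.7), followed by 3R with 401, 3L with 354, 2L with 244 and 2R with 221, while chromosome 4 had 32. Set against all listed positions, X had 2.25 members per 1000 and the large autosomal arms together 0.982, with 0.788 on 2R and 1.14 on 3L. Chromosome 4 had 0.570 per 1000. Members on X were spread along it, with 11 to 64 in each of 22 whole megabases and a median of 34.5.

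The X share was higher the more tables listed a transversion, from 19.7% in 1 table to 21.7% in 2, 27.0% in 3 and 35.6% in 4. Among all transversions of a library it was 20.7% and 19.8% in HiSeq 1 and 2, and it was lowest in NextSeq 2 at 19.6%. C-to-T and G-to-A differences went the same way, from 19.7% in 1 table to 33.3% in 4 (29.6 to 37.3), and T-to-C with A-to-G in 4 tables gave 30.0%. Transversions in both HiSeq tables were on X in 28.4% of cases and those in both NextSeq tables in 22.8%. By kind, 37.4% of C-to-A or G-to-T and 36.1% of A-to-T or T-to-A members were on X, against 17.7% (11.9 to 24.8) of changes to C or G. The median number of other listed positions within 50 bp was 18 for members on X and 20 for those on the large autosomal arms.

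**Figure D4:**
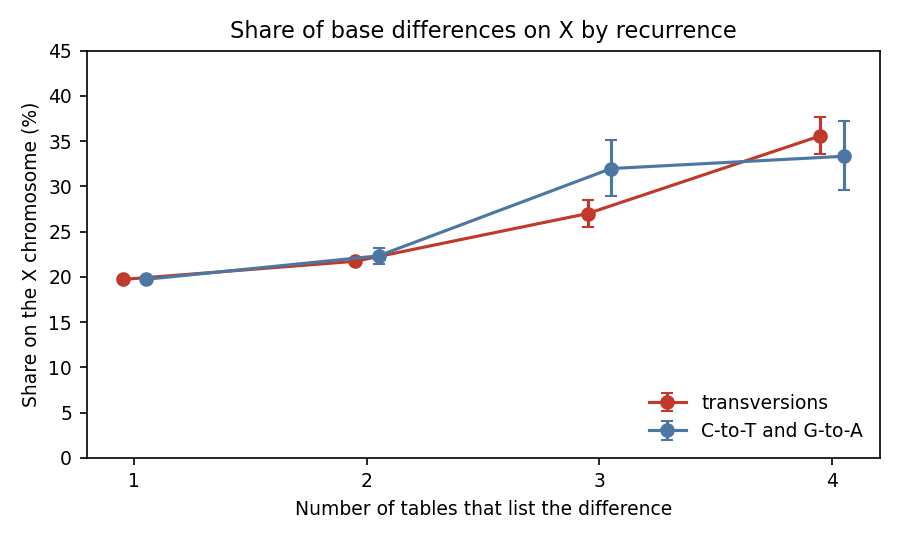
Share of differences on the X chromosome (%, vertical axis) by the number of tables that list them, for transversions and for C-to-T and G-to-A; points are shares and whiskers exact 95% binomial intervals. Both go from 19.7% in 1 table to 35.6% and 33.3% in 4.

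Heterochromatin scaffolds, assembled sequence from the repeat-rich parts of chromosomes, held 87 members (4.18%), or 3.45 per 1000 listed positions. XHet had 25 members, 14.7 per 1000, and 2RHet had 40 members, 3.68 per 1000, while YHet had 1 member, 3.97 per 1000. The XHet members include groups of 6, 5 and 5, named below, that all lay between 189262 and 192298. The XHet rate thus rests largely on 1 stretch. Changes to C or G were on such scaffolds in 14.3% of cases, and changes to A or T in 3.42%. Only 1 alignment was kept per read, so the source of reads from repeated sequence is uncertain there.

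The letter case of the differing base, read here as read strand although the files do not define it, separated the members into 1177 seen in both cases in 2 or more tables (56.6%) and 902 others. By the same rule, 54.9% of recurrent C-to-T and G-to-A changes and 58.6% of recurrent T-to-C and A-to-G changes were seen in both cases. The members' share thus lay within the range of other recurrent differences, and with no read counts the tables do not show whether any member is fixed in the strain. Both cases were seen in 4 tables for 386 members, in 3 for 380, in 2 for 411, in 1 for 411 and in none for 491. Of the last, 177 were upper case and 115 lower case in every table, and 199 changed case between tables.

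Both cases were recorded for 958 members in HiSeq 1 (46.1%), 1061 in HiSeq 2 (51.0%), 906 in NextSeq 1 (43.6%) and 992 in NextSeq 2 (47.7%). Replicate 2 was the higher on each instrument, and the instruments overlapped. HiSeq libraries averaged 48.6% ± 3.50 (SD, n = 2). NextSeq libraries averaged 45.6% ± 2.93 (SD, n = 2). NextSeq minus HiSeq came to -2.91 points (exact permutation test over libraries, two-sided, p = 0.667, smallest possible 0.333). Within numbers the difference was -2.50 points for number 1 and -3.32 for number 2, lower on NextSeq in both. A test that pairs the libraries by number cannot go below its exact p = 0.5, so neither test could pass a threshold at this size. Among transversions that were not in all tables, both cases were seen in 0.941%, 1.32%, 0.559% and 0.683% of entries of HiSeq 1, HiSeq 2, NextSeq 1 and NextSeq 2.

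**Figure D5:**
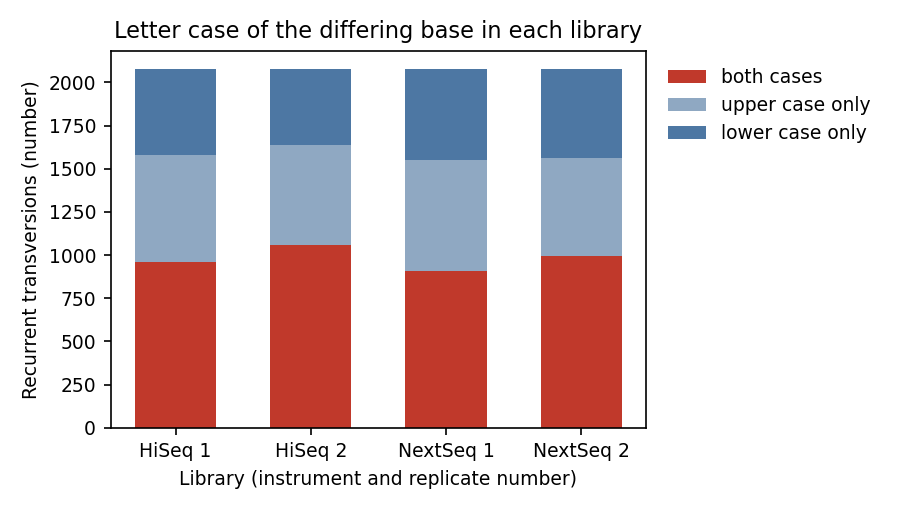
Number of recurrent transversions (vertical axis) seen in both letter cases, upper case only or lower case only in each library. Both cases make up 906 to 1061 of the 2079 in a library.

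Members seen in both cases were the more uniform set. Changes to A or T made up 97.3% of them and 87.3% of the others, and C-to-A with G-to-T made up 65.0% against 52.3%. By kind, both cases were seen for 61.8% of C-to-A and G-to-T, 54.7% of A-to-T and T-to-A, 23.6% of A-to-C and T-to-G, and 11 of the 58 C-to-G and G-to-C members. X held 38.5% of the both-case members and 31.8% of the others. This was not graded by the number of tables with both cases. With 0, 1, 2, 3 and 4 such tables, X held 29.1%, 35.0%, 36.7%, 43.9% and 35.0%. Surrounding bases equalled the differing base in 51.8% for both-case members and 41.6% for the others. The members with both cases in no table stood lowest, at 36.2%, while those with both cases in 1, 2, 3 or 4 tables lay between 49.4% and 53.1%. The largest step in these shares of surrounding bases was between none and 1 table.

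Most recurrent transversions stood alone. The median gap between member positions was 12358 bp, and 15.1% of members (13.5 to 16.7) had another within 100 bp, against 10.1% (7.83 to 12.8) of recurrent C-to-T and G-to-A differences, which are fewer. At 10, 1000 and 10000 bp the members' shares were 6.20%, 41.4% and 67.7%. Joining at gaps of at most 100 bp gave 1892 groups, of which 1750 held 1 member, 111 held 2 and 22 held 3.

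Close groups differed in kind from the rest. Of 129 members with another within 10 bp, 34.1% (26.0 to 43.0) changed to C or G, 31.8% were C-to-A or G-to-T, and 20.2% were seen in both cases in 2 or more tables. For the 1766 members with none within 100 bp these shares were 4.87%, 61.5% and 58.5%. X held 20.9% of the former and 36.0% of the latter. Surrounding bases equalled the differing base in 32.3% of the close members and 49.5% of the isolated ones. Members 11 to 100 bp from the next were nearer to the isolated ones than to the close ones. Of them, 64.1% were in both cases and 9.24% (5.47 to 14.4) changed to C or G, above the 4.87% of the isolated members. There were 13 groups of 3 or 4 positions at gaps of at most 10 bp.

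The largest groups at 100 bp lay mostly on XHet, in 1 stretch between 189262 and 192298. The first, 152 bp long at XHet from 189262 to 189413, held 6 members, 3 of them T-to-A and 2 A-to-T. At 4 of the 6 positions both cases were seen in only 1 table. A group of 5 at XHet from 192147 to 192298 held 4 members seen in both cases in all 4 tables, and another 5 lay at XHet from 189538 to 189606. The group of 5 on X, from 5144991 to 5145191, held 3 C-to-A changes, each in both cases in 3 tables. A group of 4, the first of 5 such groups by chromosome name, was the stretch on 2L from 9967328 to 9967332 printed above, whose 4 members all changed to G. Its 4 positions were upper case only in every library, except for lower case at 9967328 in HiSeq 2 and both cases at 9967332 in NextSeq 2.

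Few recurrent transversions lay on or within 100 bp of listed editing sites. Within 1000 and 10000 bp their share was above that of transversions in 1 table. Within 100 bp it was also higher, but its interval (0.858 to 1.88) held the 1-table share. None of 2079 fell on a site, which has an exact upper limit of 0.177%, against 88 of 1423611 transversions in 1 table (0.00618%). Within 10 bp the shares were 0.0962% and 0.116%. Of the members, 2 lay within 10 bp, 27 (1.30%) within 100 bp, 182 (8.75%) within 1000 bp and 589 (28.3%) within 10000 bp. For transversions in 1 table the shares at 100, 1000 and 10000 bp were 0.863%, 5.54% and 20.1%. At 10000 bp those in 2 and 3 tables gave 25.5% and 26.3%. The nearest was a C-to-A change at 887595 on chromosome 4, 3 bp from a listed site, which was lower case in both libraries of number 1 and upper case in those of number 2. A G-to-T change at 9723956 on 2L, the last of the first 8 printed stretches, lay 8 bp from a site and was seen in both cases in HiSeq 2 and NextSeq 2. The third, G-to-T at 13264642 on 2R, lay 12 bp from a site and was in both cases in every library.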

How the data were processed

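Per the labels' protocols, TopHat 2.0.6 with Bowtie 2.0.2 placed the reads on dm3 (4 mismatches, 1 alignment kept), and bsmap 2.74 (3 mismatches) was then run on what had not mapped. SAMtools 0.1.19 appears among the tools of the submitters' processing notes. The rule for calling a difference was not given in the sources used here. The mismatch limits cap how many differences a read can carry, which bears on dense groups. The deposited tables hold positions with the reference and differing base, and the deposited site list holds positions, so no depth or level is known. Upper and lower case of a base at a position were joined into 1 difference.

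Shares have exact (Clopper-Pearson) 95% intervals. Libraries were compared by exact permutation. Reference bases came from the tables themselves, since no dm3 genome or annotation was used. Groups were joined at 100 bp. Named items were the 5 largest groups (ties by chromosome name, then position), positions holding 2 members, and the 3 members nearest to a listed site. The members, rules and lists were chosen with earlier results of these data known. The counting steps were tested on simulated tables. Alternatives left out each library, loosened the recurrence, and changed distances. Whether the replicate numbers pair the libraries is not stated. The other 16 libraries were not used. Computation used Python 3.11.15 with pandas 2.3.3, scipy 1.17.1 and numpy 2.4.6, and plots used matplotlib 3.10.9.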

Additional observations from a re-analysis of the deposited data

How the results depend on the processing

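Recurrence in all 4 tables is the choice that moved most values. With presence in at least 3 tables there were 5563 transversions, of which 50.1% were C-to-A or G-to-T, 30.2% lay on X and 27.4% had another within 100 bp. The share of surrounding bases equal to the differing base was then 40.7%, of neighbours with the same base 62.7%, and of changes to A in transcript sense 70.3%. With presence in at least 1 library of each number and instrument the same values were 10448, 44.4%, 26.4%, 36.3%, 36.7%, 58.5% and 64.6%. For both HiSeq tables alone they were 5511, 48.3%, 28.4%, 29.5%, 36.6%, 60.3% and 68.1%, and for both NextSeq tables alone 35274, 26.6%, 22.8%, 64.4%, 32.6%, 54.4% and 58.5%.

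Leaving out libraries, singly or by replicate number, gave 2735 to 15637 transversions, with 760 to 1089 in both cases in 2 or more tables. C-to-A and G-to-T then ranged from 39.5% to 56.6%, X from 23.8% to 33.7%, and a neighbour within 100 bp from 17.7% to 42.0%. The share of matching surrounding bases ranged from 33.8% to 44.6%, that of neighbours with the same base from 54.6% to 67.5%, and that of changes to A in transcript sense from 57.7% to 76.4%. These settings drop a requirement of the rule, so the sets of transversions are larger by construction. They also leave fewer tables in which both cases can be seen, and the both-case counts lay below the main 1177.

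Members in both cases numbered 1588 with 1 or more tables required, 766 with 3 or more and 386 with 4. Among the 5511 transversions in both HiSeq tables, members or not, 732 were in both cases, and 662 among the 35274 in both NextSeq tables. A neighbour was present for 6.20% of members at 10 bp, 41.4% at 1000 bp, 13.1% at positions with 1 differing base and, by construction, 0% with 1 member per group. A listed site was within 1000 bp for 8.75% and within 10000 bp for 28.3%. Matching surrounding bases were 48.8% at positions with 1 differing base, 41.8% with reference bases from HiSeq tables only and 50.2% with those from differences in 1 table. With the replicate block, NextSeq minus HiSeq in both-case share was -2.91 points (exact sign-flip test, p = 0.5, the smallest possible), and it kept its sign in each of 5 alternatives. The block, which is 1 of them, leaves the difference unchanged by construction. Leaving out replicate 1 or replicate 2 only repeats the differences within numbers given above.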

Other observations

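At 195 members (9.38%) some table listed another differing base at the same position, and 9 positions held 2 members. At 3 of these the changes were C-to-A and C-to-G: 5982857 on 2R, where C-to-A was in both cases in all 4 tables and C-to-G in 3, 7819035 on 3L, and 6689874 on 3R. The letter case was the same for both changes in every library at 6689874 on 3R, at 5064209 and 20023517 on 3R and at 13757243 on X. At 5064209 (G-to-C and G-to-T) and 20023517 (A-to-C and A-to-T) it was lower case only throughout. The other positions were 3181219 on 2RHet, 4430465 on 3L and 15594893 on 3R, each with a change between A and T beside A-to-C or T-to-G.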
